A study of Rattus norvegicus with 12 samples.

Results

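Of 3939 named genes measured in RNA of rats given lipopolysaccharide (LPS), 5 are described here: the cytokine genes Tnf, Ltb, Il15 and Mif and the TNF receptor gene Tnfrsf1b. They were taken by gene symbol from the platform annotation and all 5 were found, on 6 of the 7200 probes, since Mif has 2 probes and each other gene 1. LPS, from the outer membrane of Gram-negative bacteria, is sensed by Toll-like receptor 4. Total RNA from 3 rats at 2 h and 3 rats at 6 h was compared with a control pool of the same time on 12 arrays of 2 colours; blood as its source is named in the series title only. For strain, sex, age, LPS dose, route and the number of animals in a control pool, the sources used here give nothing. Each rat was hybridised on 2 arrays, called fluor (control pool in channel 1, LPS rat in channel 2) and flip (channels exchanged), and their mean was taken as the value of that rat (n = 3 per time).

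Every value below is a log2 ratio, so 0 means equal signal and 1 means a 2-fold higher signal in the LPS rat. Such ratios carry no expression level, so levels of different genes cannot be compared and the tissue cannot be checked by the level of its markers. The direction, LPS over control pool, is likely but inferred from the values, because no label states the dyes. It rests on Il1b, a textbook LPS-induced gene, which lay above 0 on 12 of 12 arrays (1.67 to 4.23), fluor and flip alike. Both arrays of a rat were made from 1 pair of RNA samples. With flip arrays multiplied by -1, that pair would read as Il1b above the pool on fluor and below it on flip arrays. Over all probes, arrays of opposite orientation from 1 rat correlated at -0.23 to 0.25 (Pearson), against 0.43 to 0.66 between flip arrays of different rats of a time and 0.52 to 0.65 between fluor arrays. Each member's result is therefore also given with flip arrays multiplied by -1, called the turned reading below. It is the reading in which those arrays were left unturned by the depositors. The turned mean of a rat is its fluor minus its flip value, divided by 2. If the deposited ratios already share 1 direction, as those of Il1b do, it holds only the gap between orientations, with the LPS effect cancelled. Its higher and lower calls are then no result on LPS.

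TNF is made as a membrane protein, largely by monocytes, macrophages and lymphocytes, and is shed from the cell by a metalloproteinase. It signals through 2 receptors, of which Tnfrsf1b encodes TNF receptor 2, the receptor found mainly on leukocytes and endothelium. Lymphotoxin beta, the Ltb product, anchors lymphotoxin alpha in the membrane of lymphocytes and acts on the lymphotoxin beta receptor, which organises lymphoid tissue. Interleukin-15 is presented by a receptor alpha chain to cells that carry the Il2rb product and the common gamma chain, and it sustains NK cells and memory T cells. Macrophage migration inhibitory factor, the Mif product, is stored in many cells, binds the CD74 receptor and counteracts glucocorticoids.

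The promoters of 3 members are shown, because Tnf and Tnfrsf1b were the members with changes past the threshold and Ltb is the measured gene next to Tnf. In the RefSeq gene table for the rat assembly GRCr8, Lta, Tnf and Ltb are consecutive protein-coding genes of chromosome 20, and of these Lta was not among the named genes measured. Each sequence holds the 250 bases before the RefSeq start of the gene, 5′ to 3′ on the strand of the gene, with capitals for the motifs found.
Tnf, chr20:3626435-3626684 (+ strand, GRCr8): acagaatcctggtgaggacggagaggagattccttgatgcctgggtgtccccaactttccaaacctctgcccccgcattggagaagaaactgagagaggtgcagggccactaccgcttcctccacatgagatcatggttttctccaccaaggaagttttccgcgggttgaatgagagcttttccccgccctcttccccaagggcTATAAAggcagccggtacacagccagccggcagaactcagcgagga
Ltb, chr20:3634055-3634304 (- strand, GRCr8): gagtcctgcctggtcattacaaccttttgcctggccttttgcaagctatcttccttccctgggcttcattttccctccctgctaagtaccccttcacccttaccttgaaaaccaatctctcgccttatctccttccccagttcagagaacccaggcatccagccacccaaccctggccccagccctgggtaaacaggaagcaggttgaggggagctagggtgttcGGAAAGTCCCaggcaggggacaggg
Tnfrsf1b, chr5:162387412-162387661 (- strand, GRCr8): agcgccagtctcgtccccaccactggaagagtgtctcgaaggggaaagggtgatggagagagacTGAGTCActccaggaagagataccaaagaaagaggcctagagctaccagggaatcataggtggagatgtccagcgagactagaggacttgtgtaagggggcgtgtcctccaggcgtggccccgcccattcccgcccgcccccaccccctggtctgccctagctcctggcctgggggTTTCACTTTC
Both strands were searched for 4 motifs, and no matches overlapped apart from the AP-1 match, which reads on both strands. The Tnf window holds a TATA box core (TATAAA, from -46 to -41, counted back from the start), which 12.9% of 33469 promoters of this length hold. The Ltb window holds a match to the NF-kappaB consensus from -25 to -16, found in 3.54% of promoters. The Tnfrsf1b window holds an AP-1 match (TGANTCA, 6.34% of promoters) from -186 to -180 and an interferon response element core (a pair of GAAA units 2 bases apart, on the other strand, 3.41%) from -10 to -1. These matches are letters in a window and were not tested as binding sites.

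**Figure D1:**
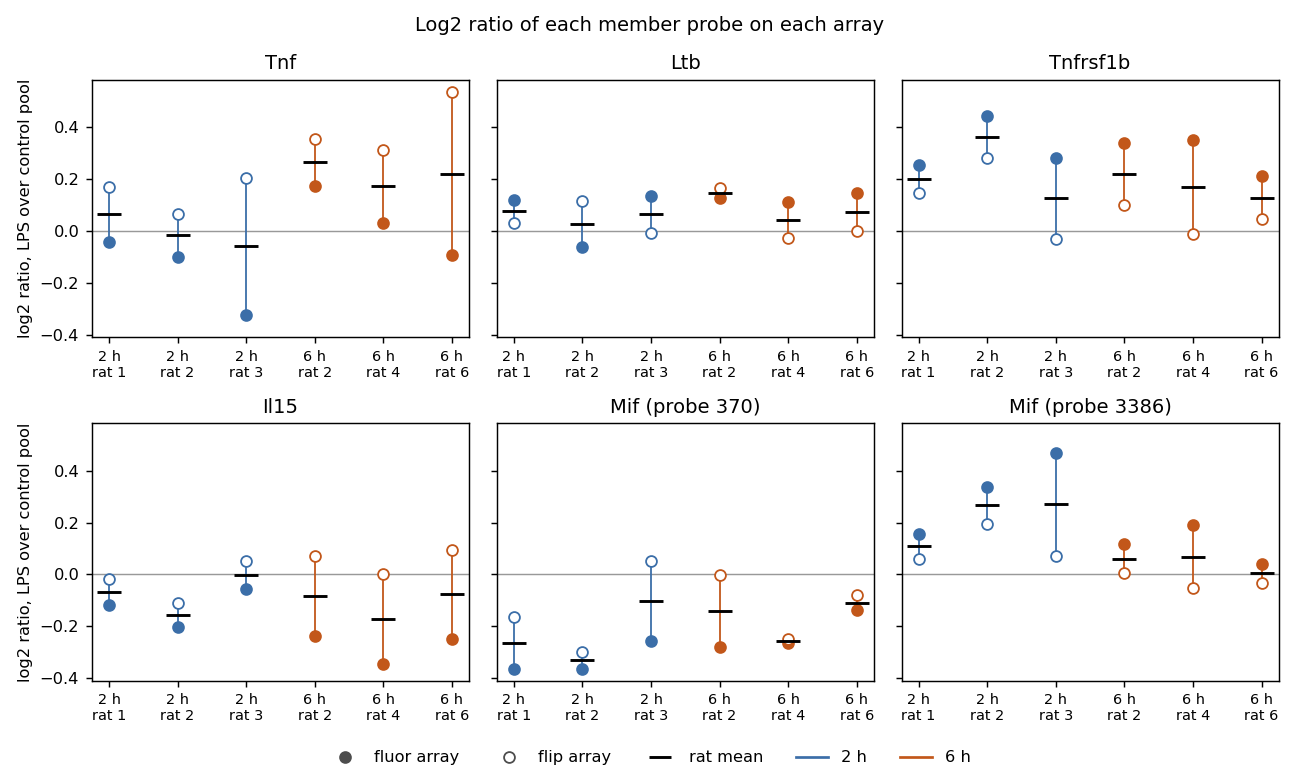
Log2 ratio of LPS over control pool (vertical axis) of the 6 probes of the 5 genes on each array, with filled points for fluor arrays, open points for flip arrays and black bars for the mean of each rat (horizontal axis, 2 h in blue, 6 h in orange). Tnf means lie from -0.059 to 0.064 at 2 h and from 0.17 to 0.27 at 6 h, and the flip array lies above the fluor array in 6 of 6 rats.

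Tnf (NCBI Gene 24835) was near its control at 2 h and slightly above it at 6 h. Rats 1, 2 and 3 at 2 h had means of 0.064, -0.017 and -0.059, so 1 rat lay above 0 and 2 lay below. At 6 h they were 0.27, 0.17 and 0.22 in rats 2, 4 and 6. All 3 values at 6 h lay above all 3 at 2 h. The mean at 2 h was -0.0037 ± 0.062 (SD, n = 3; limma adjusted p = 0.948), with a 95% interval of -0.086 to 0.079, that is between 0.942-fold and 1.06-fold of the control. The mean at 6 h was 0.22 ± 0.046, a rise of 1.17-fold (limma adjusted p = 0.00636), with a 95% interval of 1.10-fold to 1.23-fold.

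Against 0, Tnf at 6 h passed on the flip arrays and not on the fluor arrays. A single kind of array also holds the gap between orientations, and fluor minus flip averaged -0.30 at 2 h and -0.36 at 6 h. Both kinds of array were higher at 6 h than at 2 h, with means from -0.15 to 0.038 on fluor and from 0.15 to 0.40 on flip arrays. On the fluor arrays the 6 h rats stood at 0.17, 0.033 and -0.094, and on the flip arrays at 0.36, 0.31 and 0.54. The fluor mean was 0.038 ± 0.13 (adjusted p = 0.701) and the flip mean 0.40 ± 0.12 (adjusted p = 0.00231). At 2 h the fluor arrays stood at -0.041, -0.098 and -0.32 and the flip arrays at 0.17, 0.065 and 0.21, so the 2 kinds of array lay on opposite sides of 0 in each 2 h rat. In the turned reading Tnf stood at -0.15 at 2 h (limma adjusted p = 0.0907) and -0.18 at 6 h (adjusted p = 0.0300). These values are the fluor minus flip gap divided by 2. Without 6 h rat 2 the 6 h call also ended (0.20, adjusted p = 0.0555). Apart from the turned reading, it passed in 14 of 16 alternatives. One of these was a limma fit of all 12 arrays with orientation as a term (adjusted p = 0.0068).

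Ltb (NCBI Gene 361795) lay above 0 in 6 of 6 rats by amounts that did not pass the threshold at either time. At 2 h, rats 1, 2 and 3 had means of 0.077, 0.029 and 0.066, and at 6 h, rats 2, 4 and 6 had 0.15, 0.042 and 0.073. The times overlap, with 6 h rat 2 as the highest value. The mean was 0.057 ± 0.025 at 2 h (limma adjusted p = 0.229) and 0.087 ± 0.055 at 6 h (adjusted p = 0.0925), with 95% intervals of -0.017 to 0.13 and 0.013 to 0.16. The interval at 6 h runs from 1.01-fold to 1.12-fold. Ltb passed at 6 h once the median of neighbouring probes was subtracted (0.15, adjusted p = 0.0162), and stood at 0.0089 at 2 h and 0.042 at 6 h in the turned reading.

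Tnfrsf1b (NCBI Gene 156767) was the 1 member past the threshold at both times. At 2 h, rats 1, 2 and 3 had means of 0.20, 0.36 and 0.13, and at 6 h, rats 2, 4 and 6 had 0.22, 0.17 and 0.13. All 6 lay above 0 and the times overlap, with 2 h rat 2 as the highest. The mean was 0.23 ± 0.12 at 2 h, a rise of 1.17-fold (limma adjusted p = 0.0186), and 0.17 ± 0.045 at 6 h, a rise of 1.13-fold (adjusted p = 0.0445). In the turned reading it stayed above 0, at 0.098 (adjusted p = 0.0719) and 0.13 (adjusted p = 0.0172).

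The receptor's ratio was larger on the fluor arrays. They stood at 0.26, 0.44 and 0.28 at 2 h and at 0.34, 0.35 and 0.21 at 6 h, all above 0. The flip arrays stood at 0.14, 0.28 and -0.029 at 2 h and at 0.10, -0.012 and 0.047 at 6 h. On flip arrays alone neither time passed (0.13, adjusted p = 0.199, and 0.045, adjusted p = 0.598). In a limma fit of all 12 arrays with orientation as a term both times passed (adjusted p = 0.00179 at 2 h and 0.00922 at 6 h). Apart from the turned reading, the 2 h call passed in 12 of 16 alternatives and the 6 h call in 8 of 16. The 2 h call ended without 2 h rat 1 (0.24, adjusted p = 0.0546), without 2 h rat 2 (0.16, adjusted p = 0.0622) and in a fit of the 2 h rats alone (adjusted p = 0.0512). The 6 h call ended without 2 h rat 1 (adjusted p = 0.0694) or any 6 h rat (0.15 to 0.20, adjusted p 0.0950 to 0.208), with scaled (0.0571) or quantile-normalized arrays (0.0538) and in a fit of all probes (0.0614).

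Il15 (NCBI Gene 25670) lay below 0 in 6 of 6 rats and passed the threshold at neither time. Means of -0.067, -0.16 and -0.0026 were measured in rats 1, 2 and 3 at 2 h, and of -0.083, -0.17 and -0.076 in rats 2, 4 and 6 at 6 h. The 2 sets overlap over most of their range. The mean was -0.075 ± 0.077 at 2 h (limma adjusted p = 0.203) and -0.11 ± 0.054 at 6 h (adjusted p = 0.0861), with 95% intervals of -0.17 to 0.016 and -0.20 to -0.019. At 6 h the arrays of a rat gave opposite signs, at -0.24, -0.35 and -0.25 on fluor and 0.071, 0.00043 and 0.095 on flip. The 6 h mean was -0.28 ± 0.060 on fluor arrays (adjusted p = 0.00812) and 0.055 ± 0.049 on flip arrays (adjusted p = 0.367). Turned, Il15 stood at -0.051 at 2 h (adjusted p = 0.134) and passed at 6 h as lower (-0.17, adjusted p = 0.00439).

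The 2 probes of Mif (NCBI Gene 81683) gave opposite signs, so their mean describes neither. Probe 370 lay below 0 in all rats, at -0.26, -0.33 and -0.10 at 2 h (rats 1, 2 and 3) and at -0.14, -0.26 and -0.11 at 6 h (rats 2, 4 and 6). Probe 3386 had rat means of 0.11, 0.27 and 0.27 at 2 h and of 0.062, 0.069 and 0.0048 at 6 h, all above 0. Probe 3386 exceeded probe 370 on 12 of 12 arrays. The difference was 0.33 ± 0.17 over 6 rats (0.11 to 0.60; exact permutation test over signs, two-sided, p = 0.03125, the smallest that 6 rats allow).

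Fitted on their own among all probes as deposited, both Mif probes passed at 2 h and neither at 6 h. At 2 h probe 370 was at -0.23 ± 0.12 (limma adjusted p = 0.0377) and probe 3386 at 0.22 ± 0.093 (adjusted p = 0.0221). At 6 h they were at -0.17 ± 0.078 (adjusted p = 0.0773) and 0.045 ± 0.035 (adjusted p = 0.450). Turned, and given without a test, probe 370 averaged -0.096 ± 0.062 at 2 h and -0.058 ± 0.070 at 6 h, and probe 3386 averaged 0.11 ± 0.081 and 0.072 ± 0.045. Each probe kept its sign in all rats there, which restates its fluor minus flip gap and is no separate support. The gene mean as deposited was -0.0085 ± 0.083 at 2 h (adjusted p = 0.885) and -0.062 ± 0.029 at 6 h (adjusted p = 0.269), and turned it was 0.0052 and 0.0069. The GRCr8 gene table lists 9 Mif pseudogenes and 4 Mif-like genes besides Mif. Which of these sequences each probe would bind was not tested, since no probe sequence was used here, and Mif is reported as uncertain for that reason.

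**Figure D2:**
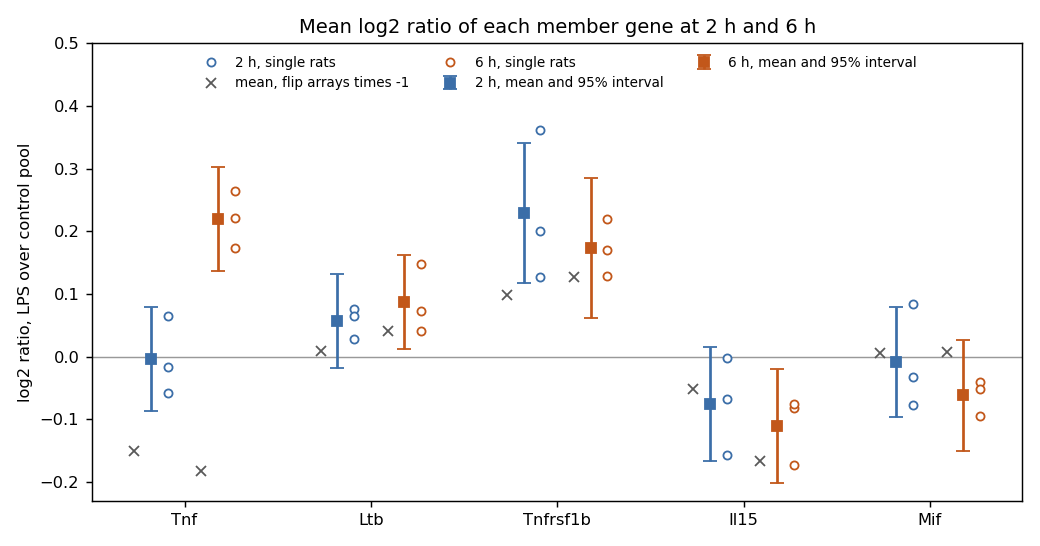
Mean log2 ratio of LPS over control pool for each gene (vertical axis) at 2 h (blue) and 6 h (orange), as squares with 95% limma intervals, with single rats as open circles and the mean with the flip arrays multiplied by -1 as a cross. The interval lies above 0 for Tnf at 6 h (0.14 to 0.30), for Tnfrsf1b at both times and for Ltb at 6 h, and below 0 for Il15 at 6 h, and the Tnf crosses lie below 0.

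Counted together, 1 of 5 members rose at 2 h (Tnfrsf1b) and 2 of 5 at 6 h (Tnf and Tnfrsf1b), and 0 fell at either time. Mif was counted here by the mean of its probes, although at 2 h 1 probe passed as lower and 1 as higher. Of all 3939 genes 19.2% passed at 2 h (9.34% higher, 9.82% lower) and 19.0% at 6 h (8.30% higher, 10.7% lower), and 5 members are too few to set these counts apart from the background. In the turned reading 0 of 5 members passed at 2 h, against 14.2% of all genes (7.18% higher, 7.01% lower). At 6 h 1 rose and 2 fell in that reading, against 37.1% of all genes (20.7% higher, 16.4% lower). The median of the members was -0.0037 at 2 h and 0.087 at 6 h, against -0.0070 and 0.0069 over all genes. As deposited, the order at 6 h was Tnf, Tnfrsf1b, Ltb, Mif and Il15. The 95% intervals of all neighbours in this order overlap. Tnf moved from first to last in the turned reading, in the order Tnfrsf1b (0.13), Ltb (0.042), Mif (0.0069), Il15 (-0.17) and Tnf (-0.18). At 2 h the order was Tnfrsf1b, Ltb, Tnf, Mif and Il15, and again the intervals of neighbours overlap. Turned, the order at 2 h was Tnfrsf1b (0.098), Ltb (0.0089), Mif (0.0052), Il15 (-0.051) and Tnf (-0.15).

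As deposited, Tnf had the largest difference between the times among the members, 0.22 (SE 0.049) for 6 h minus 2 h, with a 95% interval of 0.11 to 0.34. Its limma adjusted p was 0.107. An exact permutation test of the rat means, two-sided, gave p = 0.1, the smallest that 3 against 3 rats allow. For Ltb the difference was 0.030 (interval -0.075 to 0.14), for Tnfrsf1b -0.057 (-0.21 to 0.10), for Il15 -0.035 (-0.16 to 0.094) and for Mif -0.053 (-0.18 to 0.071). So limma passed 0 of 5 members between the times, against 0.508% of all genes (0.330% higher, 0.178% lower). At an unadjusted p under 0.05 the count was 1 of 5 members, against 14.4% of all genes. The control pools differ with the times, so a change in LPS rats and a change in the pool cannot be told apart here. In the turned reading, where 0% of all genes passed, Il15 had the largest difference (-0.11), with Tnf at -0.032, Ltb at 0.033, Tnfrsf1b at 0.030 and Mif at 0.0017.

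For most of these probes there was a gap between fluor and flip arrays in 1 direction, and its cause was not tested. Fluor minus flip averaged -0.33 ± 0.20 for Tnf over 6 rats, -0.22 ± 0.13 for Il15, 0.23 ± 0.098 for Tnfrsf1b, -0.15 ± 0.13 for Mif probe 370 and 0.18 ± 0.12 for Mif probe 3386. Each of these 5 had the same sign in 6 of 6 rats (exact permutation test over signs, two-sided, p = 0.03125, the smallest possible; 0.0375 after Benjamini-Hochberg adjustment over 6 probes). Ltb was the exception, at 0.050 ± 0.13, with fluor higher in 4 of 6 rats (exact permutation p = 0.375). Of all 7200 probes 39.1% had such a gap in 1 direction in all 6 rats. No member probe held the repeated value that 242 to 298 probes of an array share.

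**Figure D3:**
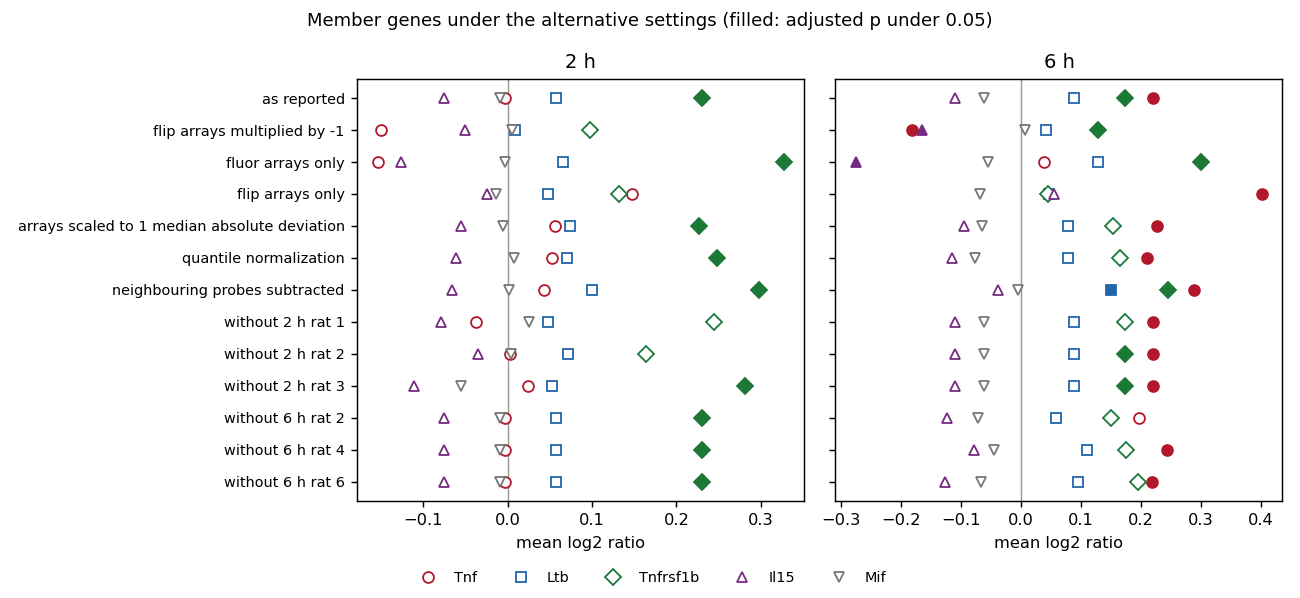
Mean log2 ratio of each gene (horizontal axis) at 2 h and 6 h under 13 settings (vertical axis), filled where limma's adjusted p is under 0.05. Tnf at 6 h ranges from -0.18 with the flip arrays multiplied by -1 to 0.40 on flip arrays only, while Tnfrsf1b lies above 0 in each setting drawn.

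Few other genes of the TNF ligand and receptor families were measured. Of 18 TNF superfamily ligands on the list only Tnf and Ltb were, and of 26 receptors Tnfrsf1b, Tnfrsf8 and Tnfrsf12a. Tnfrsf12a, the receptor for the cytokine TWEAK, stood at 0.15 ± 0.16 at 2 h (limma adjusted p = 0.131) and 0.21 ± 0.088 at 6 h (adjusted p = 0.0581). Tnfrsf8, which encodes CD30, stood at -0.053 ± 0.066 (adjusted p = 0.282) and -0.083 ± 0.023 (adjusted p = 0.119). As deposited, Tnfrsf1b was the 1 receptor of 3 that passed, at both times. Turned, 0 passed at 2 h, and at 6 h Tnfrsf1b and Tnfrsf12a (0.18, adjusted p = 0.0108) passed as higher and Tnfrsf8 (-0.15, adjusted p = 0.00521) as lower. Tnfrsf12a at 6 h passed in 8 of 16 alternatives, that reading left out. For this list and those below, the shares of all genes that passed were 19.2% at 2 h and 19.0% at 6 h. Turned, they were 14.2% and 37.1%, and no list was tested against them.

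Of 10 measured genes of TNF receptor signalling, 2 rose and 2 fell at 2 h, with a list median of 0.061. The kinases Map2k3 (0.29 ± 0.14, limma adjusted p = 0.0264) and Map2k6 (0.31 ± 0.13, adjusted p = 0.00785), which activate p38, rose. Mapk14, which encodes p38 alpha itself (-0.13 ± 0.062, adjusted p = 0.0418), and Rbck1, a subunit of the linear ubiquitin ligase (-0.15 ± 0.070, adjusted p = 0.0422), fell. At 6 h Mapk14 (-0.18 ± 0.030, adjusted p = 0.0124) and Rbck1 (-0.17 ± 0.066, adjusted p = 0.0268) were still lower and 0 of the 10 rose, with a median of -0.039. Nfkb1 and the inhibitor gene Nfkbia did not pass at either time, at 0.11 and 0.012 at 2 h and -0.099 and -0.11 at 6 h. In the turned reading the list had 2 higher and 0 lower at 2 h, and 2 higher and 1 lower at 6 h, and Rbck1 at 6 h stood at 0.014.

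Among 10 measured genes that govern TNF production, shedding and mRNA decay, 2 rose at 2 h and 4 at 6 h, and 0 fell. The list median was 0.052 at 2 h and 0.088 at 6 h. Furin, a protease that activates the TNF sheddase, rose at both times (0.28 ± 0.089, limma adjusted p = 0.0325, and 0.38 ± 0.19, adjusted p = 0.0103). Cnot1, the scaffold of the deadenylase complex, rose at 2 h (0.14 ± 0.027, adjusted p = 0.0192). Zfp36, whose product destabilises Tnf mRNA, rose at 6 h (0.26 ± 0.11, adjusted p = 0.00814), as did the LPS-induced factor Litaf (0.19 ± 0.046, adjusted p = 0.0184) and the p38-activated kinase Mapkapk3 (0.23 ± 0.065, adjusted p = 0.0207). Zfp36 at 6 h passed in each of its 16 alternatives other than the turned reading. Turned, it also passed (0.12), which is no support if the deposited ratios already share 1 direction. In that reading the list had 1 higher and 1 lower at 6 h and 0 of either at 2 h.

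In the interleukin-15 pathway 5 of 23 listed genes were measured, and Il2rb, the signalling chain that binds interleukin-15, was the 1 that rose. It stood at 0.42 ± 0.16 at 2 h (limma adjusted p = 0.00476) and at -0.033 ± 0.081 at 6 h (adjusted p = 0.718). Its difference of -0.45 between the times had a limma adjusted p of 0.0736. Turned, Il2rb stood at 0.054 at 2 h and did not pass, and at 6 h it passed as lower (-0.15, adjusted p = 0.0137). Il15 and Il2rb were then the 2 genes of the list that passed at 6 h, both lower, and 0 passed at 2 h. In that reading 37.1% of all genes passed at 6 h (16.4% lower) and 14.2% at 2 h. Jak1, Stat3 and Stat5b lay between -0.10 and 0.051 at both times and did not pass.

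Of 7 measured genes of the MIF pathway, 2 rose at both times and 0 fell. Nr3c1, the glucocorticoid receptor, rose by 0.53 ± 0.12 at 2 h (limma adjusted p = 0.0012) and by 0.99 ± 0.093 at 6 h (1.98-fold, adjusted p = 9.2e-05). Ackr3, an atypical chemokine receptor that also binds MIF, rose by 0.23 ± 0.070 (adjusted p = 0.00585) and 0.34 ± 0.036 (adjusted p = 0.00113). As deposited, the Mif homologue Ddt and the receptor gene Cxcr4 did not pass, at -0.11 and -0.13 at 2 h and 0.0090 and -0.071 at 6 h. The list median was -0.0085 at 2 h and -0.057 at 6 h. Nr3c1 passed in the turned reading at 6 h (0.18) and not at 2 h (0.13), and Ackr3 at neither time (-0.049 and 0.057). In that reading 0 of the 7 passed at 2 h, and at 6 h 2 fell, the kinase gene Syk (-0.15, adjusted p = 0.00904) and Cxcr4 (-0.15, adjusted p = 0.0253).

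Of 9 other measured cytokine genes, Il1b was the 1 that rose at 2 h, and Il1b, Il34 and Ctf1 rose at 6 h. Il1b, which encodes interleukin-1 beta, stood at 3.90 ± 0.31 at 2 h and 2.05 ± 0.13 at 6 h (limma adjusted p = 6.7e-06 and 8.4e-05). Its difference of -1.86 passed (adjusted p = 0.00735). Il34, a ligand of the CSF1 receptor, rose by 0.37 ± 0.053 at 6 h (adjusted p = 0.0137), and Ctf1, which encodes cardiotrophin-1, by 0.14 ± 0.043 (adjusted p = 0.0420). So Tnf stood at 1.17-fold on the same 6 h arrays on which Il1b stood at 4.13-fold. Il1b passed at neither time in the turned reading (0.30 and 0.22), and Ctf1 did not at 6 h (-0.022). Il34 passed at both times in that reading (0.23 and 0.29), as did Tgfb2 as higher (0.11 and 0.21) and Cntf as lower (-0.17 and -0.20), and Kitlg passed at 6 h (0.16). That made 2 higher and 1 lower at 2 h and 3 higher and 1 lower at 6 h.

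**Figure D4:**
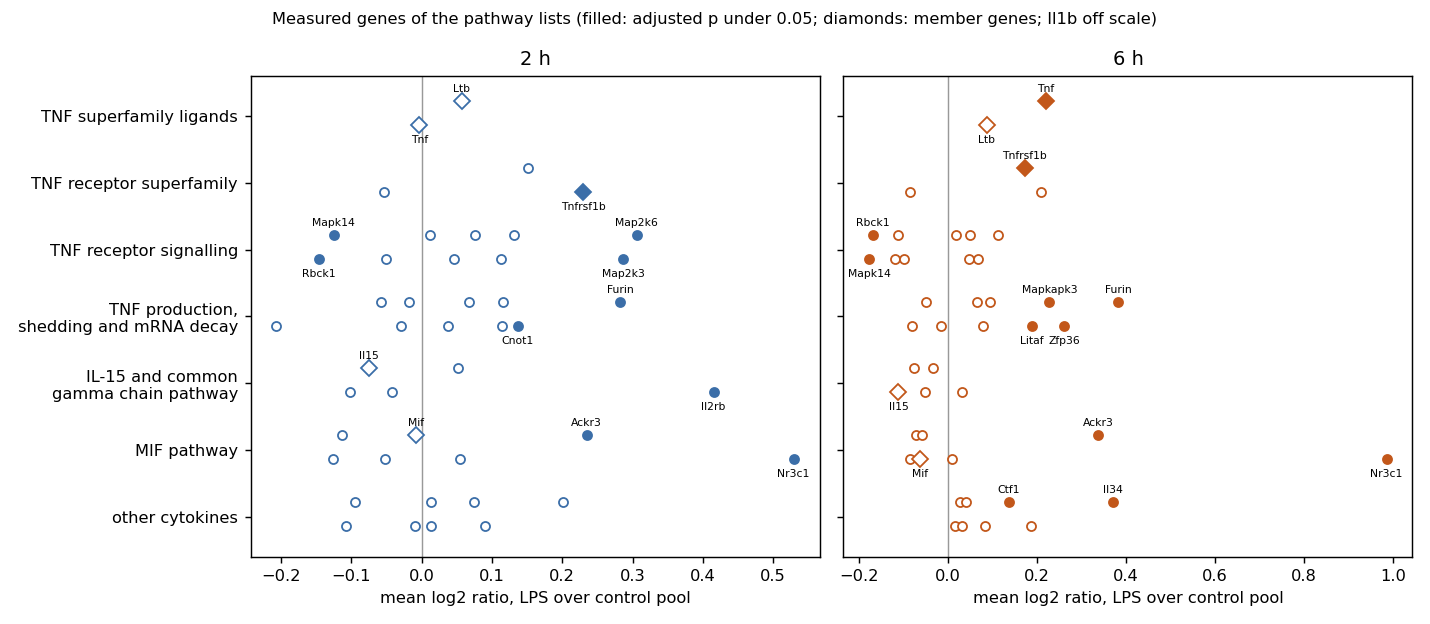
Mean log2 ratio of LPS over control pool (horizontal axis) of each measured gene in 7 pathway lists (vertical axis) at 2 h and 6 h, filled where limma's adjusted p is under 0.05, with diamonds for the member genes and Il1b left off the scale. As deposited, Nr3c1 is the farthest to the right at both times (0.53 and 0.99; turned, it stood at 0.13 and 0.18, under Il34 at 0.23 and 0.29), and the member genes lie between -0.11 and 0.23.

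In these lists without the members, 8 of 41 measured genes rose and 2 fell at 2 h, and 9 rose and 2 fell at 6 h, beside the shares of all genes given above. Of these 22 calls, the one on Il1b between the times included, 17 passed with scaled and 19 with quantile-normalized arrays. In the turned reading 4 passed with the same sign, which is no support if the deposited ratios already share 1 direction. On flip arrays only 11 of the 22 no longer passed. With neighbouring probes subtracted the calls on Rbck1 at 2 h (-0.041) and 6 h (-0.089), Cnot1 at 2 h (0.059) and Ctf1 at 6 h (0.078) ended. Several of these calls ended when 1 rat was left out, which also leaves fewer rats for the estimate of the spread. Without 2 h rat 1, 2 or 3 the 2 h calls on Rbck1, Mapk14, Map2k3, Furin and Cnot1 ended, and without 2 h rat 2 that on Map2k6 as well. Without 6 h rat 2 the 6 h calls on Rbck1, Mapk14, Litaf, Mapkapk3, Il34 and Ctf1 ended, together with that on Il1b between the times. Without 6 h rat 6 the same 6 h calls except Il1b ended, without 6 h rat 4 those on Rbck1, Litaf, Il34 and Ctf1, and without 2 h rat 1 that on Ctf1. The 2 h calls on Rbck1 and Mapk14 also ended when any 1 of the 6 h rats was left out, and that on Furin without 6 h rat 2. Their 2 h means do not change in these fits (-0.15, -0.13 and 0.28). Over these losses the adjusted p ran from 0.0504 to 0.211, those of the members included.

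Marker genes of blood cell types moved beside these results, and in whole RNA fewer cells of a type and less RNA per cell cannot be told apart. Of 4 measured T cell markers (of 14) 2 fell at each time, with rat medians of -0.30 to -0.23 at 2 h and -0.43 to -0.15 at 6 h. Of 2 measured B cell markers (of 10) 2 fell at 2 h and 1 at 6 h (rat medians -0.33 to -0.23 and -0.43 to -0.39). These are cells known to express Ltb, which passed at neither time (0.057 and 0.087) and lay above 0 on 8 of 12 arrays. Of 3 measured monocyte and macrophage markers (of 11) 1 fell at 2 h and 2 at 6 h (rat medians -0.22 to -0.16 and -0.23 to -0.10). Of 3 neutrophil markers (of 14) 2 rose at each time (0.43 to 1.06 and 0.60 to 0.62). They were far apart: S100a9 (2.98 and 2.70) and Lcn2 (0.69 and 0.61) rose, and S100a8 did not pass (-0.083 and -0.053). Of 4 NK and cytotoxic markers (of 12) 2 rose at each time (0.13 to 0.26 and 0.13 to 0.15). Il2rb was among those that rose at 2 h and not among those at 6 h (-0.033, limma adjusted p = 0.718). Of 6 erythroid markers (of 12) 3 rose and 1 fell at 2 h and 2 fell at 6 h, and of 2 platelet markers (of 9) 1 rose at 2 h and 0 passed at 6 h. In the turned reading 1 T cell marker fell at each time, 0 B cell markers passed and 1 neutrophil marker rose at 6 h. Of the monocyte and macrophage markers 1 fell at 6 h, and of the NK and cytotoxic markers 1 rose and 1 fell at 6 h, with 0 of either list at 2 h. Erythroid markers then had 3 higher and 1 lower at 2 h and 4 higher and 1 lower at 6 h, and 1 platelet marker rose at each time. The shares of all genes that passed were 19.2% at 2 h and 19.0% at 6 h, and turned 14.2% and 37.1%. The part of these markers in the ratios of Tnf, Ltb, Tnfrsf1b and Il15 was not tested.

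Genes with the pattern nearest to each member were found by the root mean square difference over the 12 arrays, among 3899 genes without repeated values. The nearest to Tnf were Ptpn21 (0.11), Mrps23 (0.11) and Evl (0.11). Their means were near 0 at 2 h (-0.029 to 0.044) and higher at 6 h (0.17 to 0.24), which their selection on these same arrays largely fixes. The nearest to Tnfrsf1b were Tead2 (0.055), Znrd2 (0.060) and Suco (0.065), and to Ltb Mog (0.048), Pgpep1 (0.049) and Cfap298 (0.056). The nearest to Il15 were Asmtl (0.035), Tnfrsf8 (0.038) and Serpinh1 (0.040), and to the mean of the Mif probes Phkg2 (0.041), Col15a1 (0.046) and Npepl1 (0.048). By the root mean square of its own ratios over the arrays, Tnf exceeded 80.1% of genes, Tnfrsf1b 79.8%, Il15 58.1%, Ltb 25.6% and the Mif mean 8.63%. This measure uses single arrays, so it includes the gap between fluor and flip arrays and does not rank the change after LPS.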

How the data were processed

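Each array file holds 1 deposited log2 ratio of both channels for every probe, per the file headers. The base was settled from the values: powers of 2 of ratios under 5 were whole multiples of 0.0001 in 100% of values on every array (tolerance 0.05 of that step), against at most 12.9% for the other bases. On dyes, scanner, background correction and normalization the sources used here say nothing. The medians of the arrays were between -0.020 and 0.0083 and standard deviations between 0.27 and 0.48. No intensities were used, so signal over background is unknown, and the number of arrays limits the precision.

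Of 7200 probes, 4190 had 1 symbol, 46 several and 2964 none. Symbols came from the platform annotation and were brought up to date by NCBI gene number with the RefSeq table of GRCr8 (4184 matched), and probes were averaged per gene. Both arrays of each rat, made from 1 pair of RNA samples, were averaged. The fit used limma 3.58.1 under R 4.3.3, with lmFit and eBayes on the 6 rat means and a mean for each time, which leaves 4 residual degrees of freedom. P-values were Benjamini-Hochberg adjusted over all 3939 genes, and adjusted p under 0.05 was the threshold. Each control pool is 1 control sample, so tests against 0 leave out its spread, and the labels do not say whether rats numbered 2 at both times are 1 animal; they were treated as different. The script was tested on simulated data. Errors are SD over rats (SE for differences between times). Nothing says more of the rats than their numbers, so p-values measure the spread between these samples.

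The members, gene lists and tests were chosen with earlier results of these data known. Named are the members, every measured gene of the pathway lists past the threshold, and the 3 genes nearest to each member over the 12 arrays. Pathway genes named without passing as deposited (Tnfrsf8, Tnfrsf12a, Nfkb1, Nfkbia, Jak1, Stat3, Stat5b, Ddt, Cxcr4, Syk, Tgfb2, Cntf and Kitlg) fall outside this rule and were chosen after their values were seen. The 3 measured neutrophil markers were also named after their values were seen. Alternatives were single kinds of array, flip arrays multiplied by -1, a fit of all 12 arrays with orientation as a term and rats as random blocks, scaling, quantile normalization, repeated values set to missing, neighbouring probes subtracted, a fit of all probes, 1 time only, robust eBayes and leaving out each rat. Promoters are from RefSeq with the build GRCr8 (5 of 5 members matched, 3 shown).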

Additional observations from a re-analysis of the deposited data

Results flagged for a closer look

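Il1b, described beside the other cytokines, had an effect that differed between the times by a test of the difference itself. It was lower at 6 h than at 2 h by -1.86 on the log2 scale (limma adjusted p = 0.00735). The difference kept its sign in all alternatives and missed the threshold without 6 h rat 2 (-1.90, adjusted p = 0.0554), on flip arrays only (-1.78, adjusted p = 0.0712), with scaled arrays (-2.49, adjusted p = 0.128), with quantile normalization (-1.54, adjusted p = 0.0856) and after multiplying flip arrays by -1 (-0.080, adjusted p = 0.802). The control pools differ with the times, so the pool and the LPS rats cannot be told apart in it. Groups of 3 rats are too small for a check of single outlying rats.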

How the results depend on the processing

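The number of members past the threshold at 2 h (1) was 0 with the flip arrays multiplied by -1, on flip arrays only and in a fit of the 2 h rats only, and ranged from 0 to 1 with a rat left out. At 6 h (2) it was 1 on flip arrays only, with scaled arrays, with quantile normalization and in the fit of all probes, and ranged from 0 to 2 with a rat left out. It was 3 at 6 h with the flip arrays multiplied by -1 (Tnf lower, Il15 lower, Tnfrsf1b higher) and with neighbouring probes subtracted (Tnf, Ltb and Tnfrsf1b higher), and on fluor arrays only the 2 were Il15 and Tnfrsf1b. Between the times it was 0 in all alternatives run. The fit of all probes gives Mif no p-value, since its probes differ in sign.

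Direction changed as follows. With the flip arrays multiplied by -1, Mif was at 0.0052 at 2 h and 0.0069 at 6 h, Tnf at -0.18 at 6 h, Ackr3 at -0.049 at 2 h, and Rbck1 at 0.014, Mapkapk3 at -0.045 and Ctf1 at -0.022 at 6 h. Between the times Tnf was then at -0.032, Mif at 0.0017 and Tnfrsf1b at 0.030. On flip arrays only Tnf was at 0.15 at 2 h, Il15 at 0.055 at 6 h and at 0.080 between the times, and Ltb at -0.0022 between the times. Scaling put Tnf at 0.056 at 2 h, quantile normalization Tnf at 0.053 and Mif at 0.0072, and neighbouring probes Tnf at 0.044, Mif at 0.0012 and Il15 between the times at 0.026. With a rat left out, Tnf at 2 h ranged from -0.038 to 0.024, Mif at 2 h from -0.055 to 0.026, Il15 between the times from -0.076 to 0.0012 and Tnfrsf1b between the times from -0.11 to 0.0092. The cause was not tested. Over members and alternatives 210 values kept their direction and side of the threshold, 3 newly passed, 15 no longer passed and 22 changed sign. For the pathway genes the counts were 282, 0, 87 and 4. Both sets of counts include the turned reading, which gave all 4 changes of sign in the pathway genes. In that reading the LPS effect cancels if the deposited ratios already share 1 direction. No paired analysis was possible because the groups share only the rat number 2.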
